A study of Mus musculus with 16 samples.

Results

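Loss of Il13 was examined in resting muscle by setting the gastrocnemius transcripts of 4 untrained Il13 knockout (KO) mice, genotype Il13-/-, beside those of 4 untrained wild-type (WT) mice. These are 8 of the 16 libraries of a study of endurance training, chosen by the genotype and training state in their labels. All mice were males of the strain C57Bl6/J aged 20 weeks, and the other 8, also 4 WT and 4 KO, had run daily on a treadmill for 5 weeks. Libraries came from different mice, and how the Il13 allele was made is not in the labels. The table lists 23440 genes in RPKM (read counts divided by the length of the gene and by the library's total), of which 10171 reached 1 RPKM in at least 4 of the 16 libraries and were tested. Of these, 899 lie on chromosome 11, where Il13 itself lies, and 9272 lie elsewhere, and the 2 sets are described apart.

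Interleukin-13 is a cytokine of type 2 immunity, made mainly by T helper 2 cells, group 2 innate lymphoid cells, mast cells and basophils. It binds a receptor formed by Il13ra1 and Il4ra, and Janus kinases bound to that receptor activate the transcription factor Stat6; Il13ra2 binds the cytokine as a decoy. In muscle, type 2 cytokines act on fibro-adipogenic progenitors, macrophages and satellite cells during repair, and interleukin-13 has been linked to fatty acid use during endurance exercise.

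The 8 untrained libraries held between 16481819 and 18676172 reads, solved from the steps between low RPKM values. The listed genes took 80.0% to 83.3% of these reads in WT and 77.2% to 81.7% in KO. The markers of fast fibres summed to 119749 to 143088 RPKM per library and those of slow fibres to 2983 to 4736 in this mainly fast-fibred muscle. KO replicate 3 stood apart from the others in its nerve and Schwann cell markers, which summed to 149.9 RPKM against 51.1 to 77.6 in the other 7 untrained libraries. For the gene lists described below whose median rests on this library, the median is given with and without it. The libraries are bulk tissue, so fewer cells of a type and less RNA per cell cannot be told apart.

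The targeted gene could not check the genotype, because Il13 was at or under the floor of 3 reads in every library. Il13 (chr11:53631323-53634702, minus strand, mm10 coordinates of the deposited table) had 0 reads in each of the 4 untrained WT libraries, which allows up to 0.141 to 0.149 RPKM. The untrained KO libraries had 2, 1, 0 and 0 reads, or 0.0921, 0.0444, 0 and 0 RPKM. The few reads seen thus came from libraries labelled KO, at a level where 1 read decides the value. Il4, its neighbour and the other main ligand of Il4ra, was at 0 in all 4 WT libraries and at 0.0659, 0.0635, 0 and 0 RPKM in the KO libraries. Il5, another type 2 cytokine of the same cluster, was at 0 in WT and at 0.0368 RPKM in KO replicate 4 alone.

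Across all 10171 genes, 5 differed between untrained KO and WT at an adjusted p under 0.05 (limma, Benjamini-Hochberg), which is 0.0492% of the genes tested. The 2 that rose (0.0197%) were Thg1l and Tnip1, and the 3 that fell (0.0295%) were Lyrm7, Fam114a2 and Anxa6. All 5 lie on chromosome 11 within 10 Mb of Il13. The values of the 4 KO mice did not overlap those of the 4 WT mice for any of the 5. These genes were picked on the same values, so this is a description and no added support. Of all genes tested, 3.95% had groups that did not overlap (1.58% higher and 2.37% lower in KO). The unadjusted p was under 0.05 for 631 (6.2%), of which 327 were higher (3.22%) and 304 lower (2.99%) in KO.

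Lyrm7 encodes an assembly factor of mitochondrial complex III and lies 1.20 Mb beyond Il13 (chr11:54839289-54860591, minus strand). It was at 2.59, 3.41, 2.96 and 3.17 RPKM in the WT mice and at 1.25, 1.33, 1.53 and 0.957 RPKM in the KO mice. The highest KO value was thus below the lowest WT value. The mean fell from 3.03 ± 0.351 to 1.27 ± 0.238 RPKM (SD, n = 4), a log2 difference of -1.21 (SE 0.14, adjusted p = 0.0013). These levels rest on 37 reads or more in each of the 16 libraries.

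Thg1l encodes a guanylyltransferase that acts on histidine tRNA and lies 7.68 Mb on the other side of Il13 (chr11:45948154-45955494, minus strand). Its levels were 1.56, 1.77, 1.27 and 1.33 RPKM in WT and 3.96, 2.68, 3.94 and 3.36 RPKM in KO, so that every KO mouse was above every WT mouse. The mean rose from 1.48 ± 0.228 to 3.49 ± 0.606 RPKM, a log2 difference of 1.17 (SE 0.15, adjusted p = 0.00181), on 20 to 67 reads per library.

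Tnip1 encodes a protein that binds the ubiquitin-editing enzyme A20 and restrains NF-κB signalling, and it lies 1.28 Mb from Il13 (chr11:54910787-54962940, minus strand). The WT mice were closely grouped at 12.5, 12.4, 11.9 and 12.4 RPKM, and the KO mice lay at 18, 16.2, 18.5 and 16.8 RPKM. The mean rose 1.41-fold, a log2 difference of 0.49 (SE 0.08, adjusted p = 0.0176). Leaving out WT replicate 1, 2, 3 or 4, or KO replicate 1 or 3, left differences of 0.46 to 0.50 with adjusted p of 0.063 to 0.108.

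The promoters of these 2 genes are shown because they were the genes that rose, and because both windows, of 250 bases up to a RefSeq start (GRCm38.p6, minus strand, 5′ to 3′), hold no annotated exon base in GENCODE M21. Tnip1 is at chr11:54962941-54963190 and Thg1l at chr11:45955504-45955753. Another RefSeq start of Thg1l has its window at chr11:45955189-45955438, with 164 of 250 bases in annotated exons, and is not shown. The capitals mark GGGGAATTCCCC, the longest palindrome of the Tnip1 window, which contains a form of the κB motif and was looked for after that sequence had been seen.
Tnip1: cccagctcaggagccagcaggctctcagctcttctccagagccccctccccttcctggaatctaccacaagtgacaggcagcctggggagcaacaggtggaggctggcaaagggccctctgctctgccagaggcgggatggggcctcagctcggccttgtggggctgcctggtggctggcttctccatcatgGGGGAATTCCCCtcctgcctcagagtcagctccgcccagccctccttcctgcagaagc
Thg1l: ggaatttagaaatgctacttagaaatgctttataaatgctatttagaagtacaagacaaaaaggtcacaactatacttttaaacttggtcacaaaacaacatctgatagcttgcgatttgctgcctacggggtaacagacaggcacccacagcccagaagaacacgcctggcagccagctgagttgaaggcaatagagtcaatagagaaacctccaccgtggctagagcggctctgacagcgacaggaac
That palindrome was in 1 of the 7680 tested genes with a promoter in the RefSeq table (0.013%), Tnip1 itself. The Stat6 motif, TTC and GAA with any 4 bases between them, was in 5.4% of those 7680, in 0 of the 3 called genes with a promoter there (Lyrm7, Thg1l and Tnip1) and in 4 of the 125 genes under 10 Mb from Il13 that had one (3.2%). The oestrogen-related receptor motif TCAAGGTCA was in 0.299% of the 7680 and in none of the 3, counted over both strands. A match describes the letters of this window and nothing more.

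Fam114a2, 3.85 Mb from Il13 (chr11:57482990-57518644, minus strand), fell by 0.45 on the log2 scale (SE 0.06, adjusted p = 0.00399). It was at 18.6, 20.2, 20.2 and 20.0 RPKM in WT and at 15.2, 14.2, 15 and 13.4 RPKM in KO. Anxa6 encodes annexin A6, a calcium-dependent membrane-binding protein that takes part in repair of the muscle fibre membrane, and lies 1.34 Mb from Il13 (chr11:54978962-55033471, minus strand). It was the most abundant of the 5, at 69.7, 74.3, 72.0 and 75.9 RPKM in WT and 60.5, 56.0, 59.4 and 49.8 RPKM in KO. It fell by 0.37 on the log2 scale (SE 0.06, adjusted p = 0.0482). The groups were separate for both genes, but the Anxa6 call was the least firm, with an adjusted p of 0.053 to 0.236 when any 1 of the 8 untrained libraries was left out. None of the 5 genes shares exon bases with another gene in GENCODE M21.

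**Figure D1:**
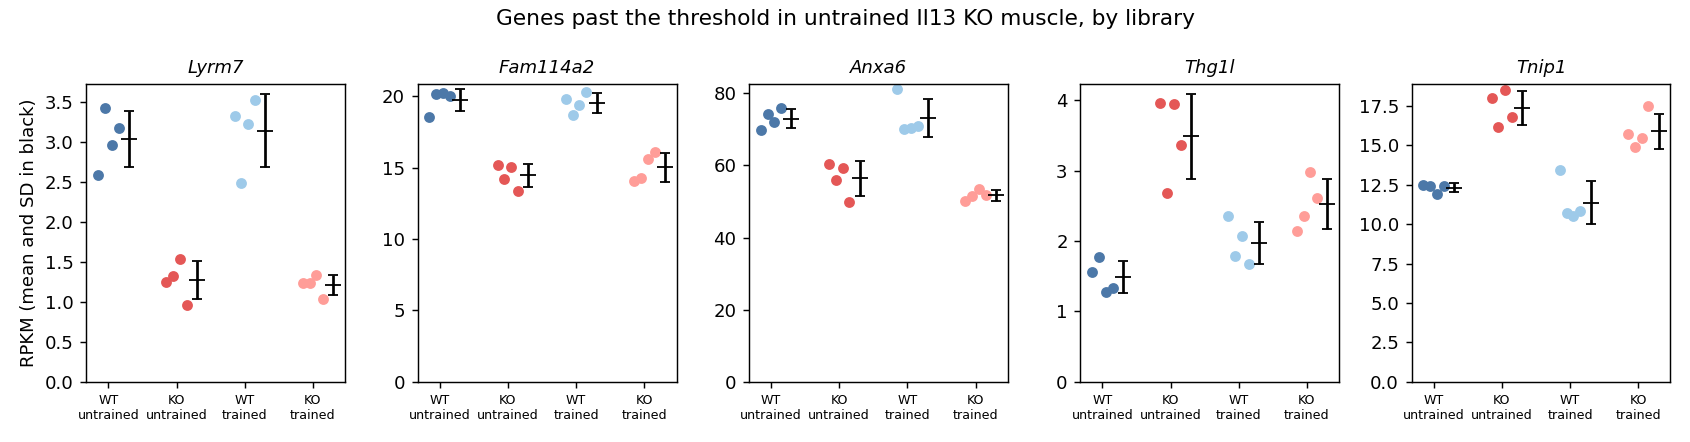
RPKM of the 5 genes past the threshold in each library of the 4 groups (points), with the mean and SD of each group in black. The untrained KO and WT mice do not overlap for any of the 5, and the trained mice, which are other animals, are separate in the same direction for all but Thg1l.

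The trained mice are other animals and give a second set of means for the same genotypes. Both comparisons took their spread from 1 model of all 16 libraries, so their p-values are not independent. With only the 8 untrained libraries, the adjusted p in untrained mice (limma) was 0.052 for Fam114a2 and 0.278 for Anxa6. In trained mice, 9 genes passed the threshold (0.0885%), 4 of them among the 5 above. Lyrm7 was at 2.48 to 3.52 RPKM in trained WT and 1.03 to 1.33 in trained KO mice, a log2 difference of -1.30 (adjusted p = 0.000455). The trained differences were -0.38 for Fam114a2 (adjusted p = 0.0224), 0.48 for Tnip1 (0.0224) and -0.50 for Anxa6 (0.00345), with groups that did not overlap, where 8.48% of all genes had separate groups in trained mice. These 4 genes thus changed in the same direction in both training states.

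Thg1l was the exception among the 5. Trained WT mice were at 2.35, 1.79, 2.07 and 1.67 RPKM and trained KO mice at 2.15, 2.35, 2.97 and 2.61 RPKM, which overlap, with a log2 difference of 0.34 (adjusted p = 0.315). The difference between the trained and untrained genotype effects was -0.83 (SE 0.21, unadjusted p = 0.000885, adjusted p = 0.526) and did not pass. No gene passed that test of the difference (limma, 0 of 10171, with 854 at an unadjusted p under 0.05, or 8.4%, and also 0 by voom on recovered reads).

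Around Il13, the genes that stood apart thinned out with distance. Of 40 tested genes under 2 Mb away, 3 passed the threshold and 22.5% had groups that did not overlap, against 3.95% of all genes. From 2 to 5 Mb, 1 of 44 passed and 6.82% were separate, and from 5 to 10 Mb, 1 of 75 passed, Thg1l, and 5.33% were separate. Of the 740 genes of chromosome 11 at 10 Mb or more, 0 passed (limma, with 46 at an unadjusted p under 0.05, or 6.22%) and 3.78% were separate. These distance limits were chosen with the values known.

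**Figure D2:**
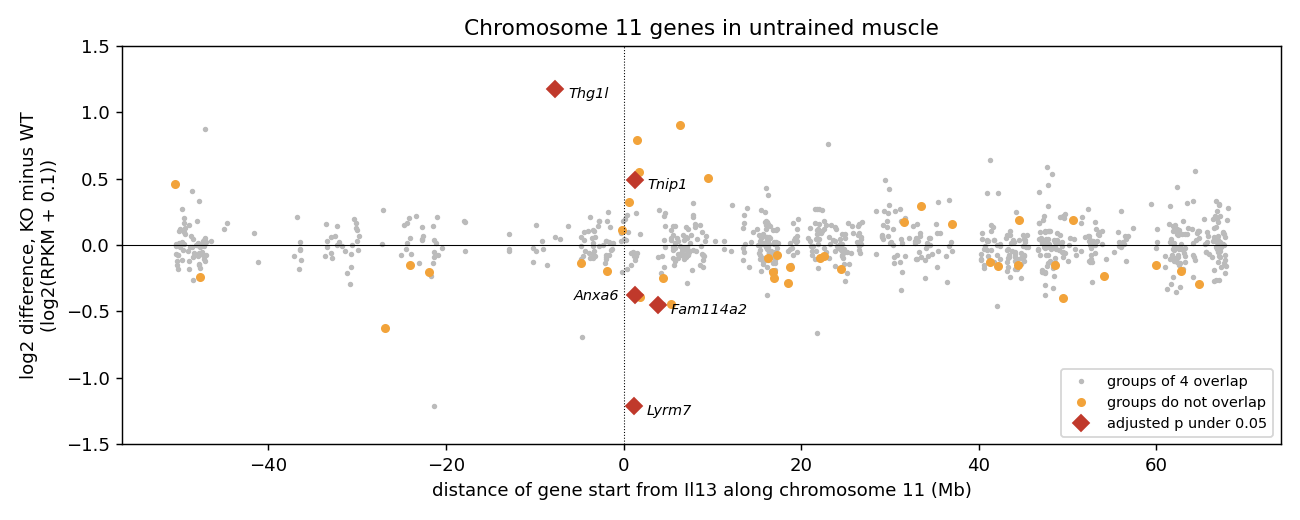
Log2 difference between untrained KO and WT mice, on the log2(RPKM + 0.1) scale, for the 899 tested genes of chromosome 11 against the distance of the gene from Il13 in Mb. The 5 genes past the threshold (diamonds) lie within 10 Mb of Il13, and genes with groups that do not overlap (filled circles) lie along the whole chromosome.

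Untrained and trained genotype differences were positively correlated for the genes under 5 Mb from Il13. Pearson's r between them was 0.544 across the 40 genes under 2 Mb, 0.677 across the 44 at 2 to 5 Mb and 0.048 across the 75 at 5 to 10 Mb. Single genes lay far from the rest in both comparisons. These were Lyrm7 under 2 Mb (-1.21 untrained, -1.30 trained) and Tgtp1 at 2 to 5 Mb (-0.69 and -0.83, with overlapping untrained groups). The r values were not computed without them. The sign was the same for 57.5% under 2 Mb, 68.2% at 2 to 5 Mb and 49.3% at 5 to 10 Mb. Pooled over the 159 genes under 10 Mb, r was 0.407, with the same sign for 56.6%, against -0.0228 and 53.5% across the other 10012. A like value was seen elsewhere, with an r of 0.4 across the 259 genes of chromosome X. Genes are not independent replicates, and the values come from the same 16 libraries. Groups that were separate in both training states and in the same direction were found for 6 of the 159 (3.77%) and for 17 of the 10012 (0.17%), where the share over all genes is 0.226%. The 6 were Lyrm7, Fam114a2, Tnip1, Anxa6, Acsl6 and Cnot8.

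**Figure D3:**
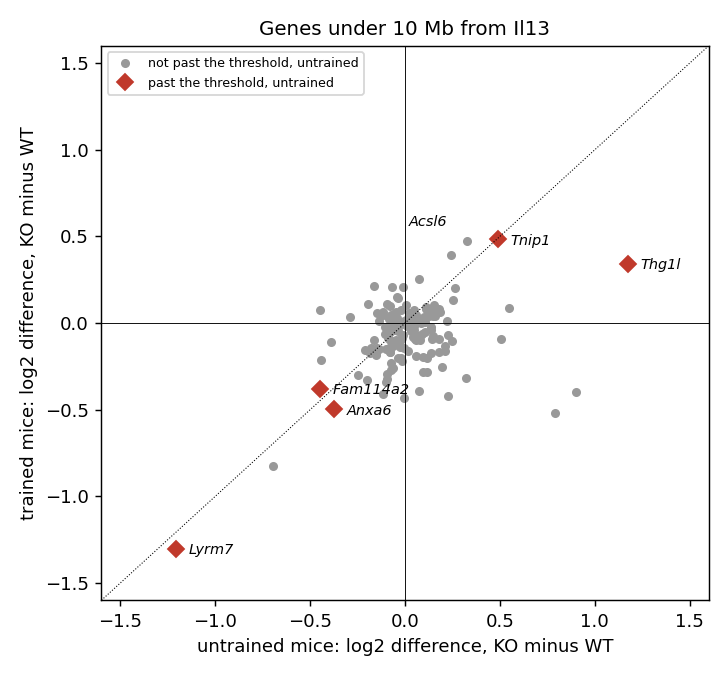
Log2 difference between KO and WT in trained mice against that in untrained mice for the 159 tested genes under 10 Mb from Il13, with the line of equality dotted. Lyrm7, Fam114a2, Anxa6 and Tnip1 lie near the line, and Thg1l lies at 1.17 in untrained and 0.34 in trained mice.

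Acsl6, a long-chain acyl-CoA synthetase 0.67 Mb from Il13, was at 12.8, 10.4, 10.4 and 9.97 RPKM in untrained WT and 13.4, 13.2, 13.8 and 14.0 RPKM in untrained KO mice. Its groups were separate, but the log2 difference of 0.33 did not pass in untrained mice (adjusted p = 0.655), whereas the difference of 0.48 in trained mice did (adjusted p = 0.0229). The 2 effects were not shown to differ (adjusted p = 0.732). Acsl6 shares exon bases with the antisense gene model Gm12224, and the use of strand in counting is not given in the sources used here. Cnot8, a subunit of the deadenylase that shortens mRNA tails, differed by -0.25 in untrained and -0.30 in trained mice and passed in neither (adjusted p = 0.780 and 0.204).

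Other neighbours of Il13 had separate groups in untrained mice without passing the threshold. Sparc, a collagen-binding matrix protein 1.76 Mb away, was at 114.5, 115.5, 99.3 and 112.8 RPKM in WT and 191.7, 146.4, 192.9 and 125.7 RPKM in KO, a log2 difference of 0.55 (adjusted p = 0.780), with 0.08 in trained mice. Atox1, a copper chaperone, differed by -0.39, and Slc36a2, a proton-coupled amino acid transporter, by 0.79 from a level under 1 RPKM in WT. In trained mice Atox1 differed by -0.11 and Slc36a2 by -0.52. Sar1b, a GTPase of vesicles that leave the endoplasmic reticulum, was at 221 to 255 RPKM in WT and 200 to 214 RPKM in KO. This was a difference of -0.19, with 0.11 in trained mice. Hist3h2a, a histone H2A gene 5.32 Mb away, differed by -0.45 (adjusted p = 0.166), and under quantile normalization it passed at -0.48 (adjusted p = 0.0397). In trained mice it differed by 0.08. It shares exon bases on the same strand with Trim17, so that its reads are uncertain.

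The genes next to Il13 on either side did not pass. Rad50, a DNA repair gene whose end lies 14.8 kb away, was at 1.28, 1.14, 1.23 and 1.51 RPKM in WT and 1.28, 1.26, 1.68 and 1.15 RPKM in KO, with overlapping groups and a log2 difference of 0.05 that turned to -0.01 under quantile normalization. Kif3a, a kinesin motor of ciliary transport, differed by 0.12 and Irf1, a transcription factor of the interferon response, by 0.19. Aff4, a scaffold of the super elongation complex, was at 7.0 to 7.38 RPKM in WT and 7.52 to 8.27 RPKM in KO, a difference of 0.11 (adjusted p = 0.780). Uqcrq, a subunit of complex III 0.20 Mb from Il13, differed by -0.20 with overlapping groups.

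Off chromosome 11, 0 of 9272 genes passed the threshold (limma), and the smallest adjusted p was 0.160. At an unadjusted p under 0.05 there were 567 (6.12%, against 7.12% of the 899 genes on chromosome 11), 300 higher and 267 lower in KO, and voom on recovered reads also called 0. The genes with the smallest p in each direction are therefore described by their values. Since the ranking used these same values, separate groups among them are no added support. Groups were separate for 358 of the 9272 genes (3.86%), 147 higher and 211 lower in KO.

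Among genes higher in KO, Fastkd1, a mitochondrial protein of the FASTK RNA-binding family on chromosome 2, had the smallest p. It was at 2.88, 3.01, 3.41 and 3.60 RPKM in WT and 4.28, 4.71, 4.19 and 3.91 RPKM in KO, with separate groups and a log2 difference of 0.40 (SE 0.08, adjusted p = 0.160). Mospd2, a membrane contact-site protein on chromosome X, was at 1.43 to 2.06 RPKM in WT and 2.10 to 2.89 RPKM in KO, a difference of 0.51 (adjusted p = 0.385). Both had separate groups in trained mice as well, with differences of 0.11 and 0.33. Utrn, which encodes utrophin, the paralogue of dystrophin, was at 3.33 to 3.54 RPKM in WT and 4.10 to 4.72 RPKM in KO, a difference of 0.35. It was at -0.07 in trained mice. Lox, which cross-links collagen and elastin, differed by 0.58, Aacs, which activates acetoacetate for lipid synthesis, by 0.65, Actn1, a non-muscle actinin, by 0.48, and Ripk2, a kinase of NOD receptor signalling, by 0.39. The groups of these 5 genes from Utrn on were separate, and each had an adjusted p of 0.780. In trained mice the differences were -0.24 for Lox, -0.20 for Aacs, -0.14 for Actn1 and -0.01 for Ripk2.

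Among genes lower in KO, Mylpf, the regulatory light chain of fast myosin on chromosome 7, had the smallest p. It was at 11150, 11620, 12291 and 10871 RPKM in WT and 9781, 9215, 9513 and 9101 RPKM in KO. The groups were separate, with a log2 difference of -0.29 (SE 0.06, adjusted p = 0.160). The trained WT mice, at 8746 to 9885 RPKM, and the trained KO mice, at 8770 to 9832 RPKM, were both below the untrained WT mice. Slc37a4, the transporter that carries glucose 6-phosphate into the endoplasmic reticulum, had the same pattern, at 41.2 to 48.7 RPKM in untrained WT, 32.2 to 36.4 in untrained KO, 27.8 to 34.4 in trained WT and 31.2 to 35.8 in trained KO mice. Its difference in untrained mice was -0.36 (SE 0.07, adjusted p = 0.180).

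Of the other genes on this ranking, Mrps18c, a protein of the mitochondrial ribosome, was at 30.8 to 34.4 RPKM in WT and 24.3 to 29.1 RPKM in KO, a difference of -0.26. Slirp, which stabilises mitochondrial mRNA, was at 55.0 to 61.9 and 42.8 to 52.8 RPKM, a difference of -0.24. Tecr, a reductase of very long chain fatty acid synthesis, differed by -0.22 in untrained mice, where it did not pass, and fell by 0.35 in trained mice (adjusted p = 0.0324). Chia, an acidic chitinase known as an interleukin-13 target in lung epithelium, was at 0.617, 1.16, 1.10 and 1.86 RPKM in WT and 0.547, 0.316, 0.358 and 0.518 RPKM in KO. Its groups were separate at these low levels, with a log2 difference of -1.20 and an adjusted p of 0.780, and it differed by 0.02 in trained mice.

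Receptors and signal carriers of interleukin-13 did not pass in either direction. Of 24 listed genes, 18 were measured, with 11 above and 7 below 0 and a median log2 difference of 0.16, beside 51.4% above 0 and a median of 0.0038 over all genes. The list median was 0.047 without WT replicate 3, 0.068 without WT replicate 1 and 0.093 without KO replicate 1. Il13ra1 stayed under the filter, at 0.502 to 0.925 RPKM in WT and 0.697 to 1.10 RPKM in KO, and Il13ra2 was at 0 in all 16 libraries. Il4ra was at 1.83, 1.83, 1.39 and 2.06 RPKM in WT and 3.63, 2.37, 1.94 and 1.69 RPKM in KO, which overlap (0.37, or 0.16 without KO replicate 1, adjusted p = 0.780). Stat6 differed by 0.13 and Stat3, which carries signals of several cytokines, by 0.19. Jak3 was the 1 member of 18 at an unadjusted p under 0.05, a share near the 6.2% of all genes. It was at 1.17 to 1.64 RPKM in WT and 1.39 to 2.02 in KO (0.33, adjusted p = 0.780), and differed by -0.09 in trained mice.

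Genes known to respond to type 2 cytokines were measured for 11 of 22 members, 8 above and 3 below 0, with a median of 0.19 that became -0.0087 without KO replicate 1, 0.11 without KO replicate 2 and 0.37 without KO replicate 4. Postn, a matrix protein of type 2 inflammation, was at 2.98, 2.97, 2.28 and 3.0 RPKM in WT and 7.45, 3.97, 3.83 and 2.89 RPKM in KO, so that KO replicate 1 was highest and the groups overlapped. Retnla, a marker of alternatively activated macrophages, was at 16.9 to 30.7 RPKM in WT and 25.2 to 41.9 RPKM in KO (0.48, adjusted p = 0.807). Other genes of that programme, among them Arg1 and Chil3, did not reach the filter.

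Of 20 fast fibre genes, none passed and 19 were below 0 in KO, a direction that quantile normalization removed (9 above and 10 below 0). As deposited, 14 had an unadjusted p under 0.05, all lower (2.99% of all genes). The groups of 10 were separate and lower (2.37% of all genes), with a list median of -0.14. Summed over the 20, WT libraries were at 129011 to 143088 RPKM and KO libraries at 119749 to 124162, with no overlap. Besides Mylpf, these were led by Pvalb, the calcium buffer of fast fibres, at 8171, 8344, 9483 and 8338 RPKM in WT and 7304, 7313, 7470 and 6926 RPKM in KO, and Myl1, a fast essential light chain, at 8586 to 9757 and 7807 to 8371 RPKM. Casq1, the calcium store of the sarcoplasmic reticulum, differed by -0.18. The main fast myosins themselves differed by -0.05 (Myh4, type 2B, which was 0.13 under quantile normalization) and 0.16 (Myh1, type 2X), with Myh1 at 0.027 to 0.33 when 1 library was left out, lowest without WT replicate 3 and highest without WT replicate 2. Quantile normalization, which gives each library the same distribution and so constrains the most abundant genes, put the list median at 0. No other alternative moved that median by as much as the SD of the list mean between libraries of a group (0.046). In trained mice the list median was -0.0054, with 10 of 20 below 0, beside -0.054 and 6634 of 10171 over all genes.

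Slow fibre genes went the other way and scattered widely. Of 18 measured, 16 were above 0, with a median of 0.16 (0.098 without KO replicate 3, 0.27 without KO replicate 4 or WT replicate 1), and none had an unadjusted p under 0.05. Myh7, the slow myosin heavy chain, was at 23.5, 3.30, 17.3 and 5.23 RPKM in WT and 33.9, 7.50, 61.5 and 23.9 RPKM in KO, a range that spans the WT values. Tnnt1 and Tpm3, slow troponin and tropomyosin genes, differed by 1.02 and 0.69 with overlapping groups. When 1 library was left out, these differences ranged from 0.65 to 1.48 and from 0.42 to 0.98. In trained mice all 18 were below 0, with a median of -0.69, beside -0.054 over all genes.

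Genes of glycolysis were below 0 in 22 of 31 (16 under quantile normalization, with 14 above), with a median of -0.088 and 10 at an unadjusted p under 0.05, all lower, beside 2.99% of all genes. The list shares members with the fast fibre list, among them Ldha and Eno3, so these counts are not a separate result. Pkm, pyruvate kinase, was at 1241 to 1458 RPKM in WT and 1124 to 1282 RPKM in KO (-0.19), and Fbp2, the muscle fructose bisphosphatase, at 33.2 to 44.0 and 31.2 to 34 RPKM (-0.23). Under quantile normalization that median was also 0. No other alternative moved it by as much as the SD of the list mean between libraries of a group (0.075).

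All 69 genes of oxidative phosphorylation were below 0 in untrained KO mice, with a median of -0.11, but with 21 above 0 under quantile normalization (median -0.022) and 9 above 0 without KO replicate 4 (median -0.053). The median was -0.075 without WT replicate 2. Of the 69, 8 had an unadjusted p under 0.05, beside 2.99% of all genes, and 2 had separate groups, a share near the 2.37% of all genes. Ndufb4, a complex I subunit, was at 324, 343, 338 and 344 RPKM in WT and 320, 292, 315 and 279 RPKM in KO, separate and different by -0.16 (adjusted p = 0.780). It differed by -0.17 in trained mice, again with separate groups. Ndufs5 was listed at 0 in KO replicates 2 and 4 and at 5.24 to 9.47 RPKM in WT, and its reads are uncertain, since this abundant subunit was listed far below the other members.

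Fatty acid genes were above 0 in 31 of 41, with a median of 0.079 that was 0.00071 without KO replicate 3, 0.032 without WT replicate 3 and 0.13 without KO replicate 4. In trained mice 36 of the 41 were below 0, with a median of -0.22, beside -0.054 over all genes. Lpl, lipoprotein lipase, which releases fatty acids from blood triglyceride, was at 97.8, 94.8, 63.9 and 85.4 RPKM in WT and 120, 97.6, 152 and 109 RPKM in KO, which overlap by a small margin (0.48, adjusted p = 0.780). Its difference was 0.35 to 0.58 when 1 library was left out and -0.29 in trained mice. Regulators of oxidative metabolism had a median of 0.021 over 23 members, which ranged from 0.0066 to 0.045 when 1 library was left out (lowest without KO replicate 1, highest without WT replicate 1). Of these, 4 were higher at an unadjusted p under 0.05, beside 3.22% of all genes. Ppara, a nuclear receptor for fatty acid use, was at 2.26 to 3.33 RPKM in WT and 3.06 to 5.45 RPKM in KO (0.54), and it differed by -0.25 in trained mice. Ppargc1a, a coactivator of mitochondrial genes, was at 14.6 and 8.10 RPKM in KO replicates 1 and 2 but at 4.83 and 4.45 in the other 2, against 4.16 to 5.85 in WT. The oestrogen-related receptors Esrra and Esrrg differed by 0.04 and 0.08 and changed sign without WT replicate 1 or KO replicate 1 (Esrra) and without KO replicate 3 (Esrrg). Nnt, which couples NADPH to the proton gradient, was at 5.33 to 7.83 RPKM in WT and 6.59 to 8.32 RPKM in KO (0.13, or 0.037 without WT replicate 3 and 0.064 without KO replicate 3).

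**Figure D4:**
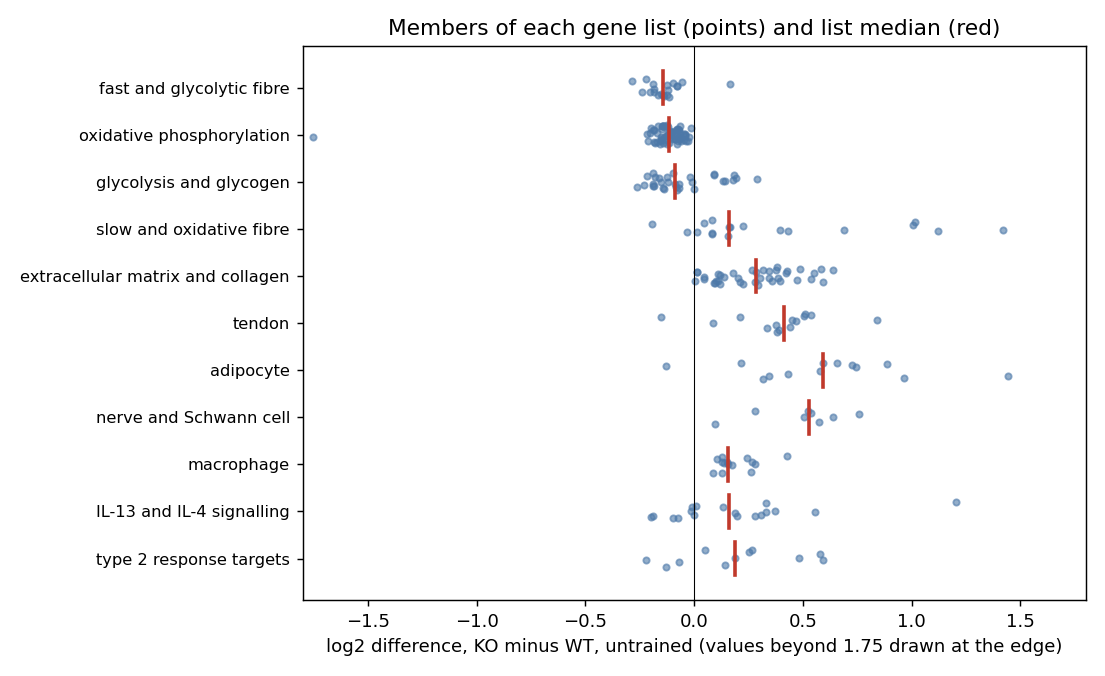
Log2 difference between untrained KO and WT for each measured member of 11 gene lists (points), with the list median in red. The fast fibre (-0.14) and oxidative phosphorylation (-0.11) medians lie below 0, and the matrix, tendon, adipocyte and nerve medians lie between 0.28 and 0.59 with more scatter. Myh1 is the 1 fast fibre member above 0, Ndufs5 lies beyond the axis and is drawn at its left edge, and under quantile normalization the fast fibre median is 0.

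Matrix genes were above 0 for all 39 measured members (37 under quantile normalization, 34 without KO replicate 1), with a median of 0.28 that was 0.17 without KO replicate 1. Of these, 8 were higher at an unadjusted p under 0.05, beside 3.22% of all genes. Besides Sparc and Lox, Col12a1, a fibril-associated collagen, had separate groups, at 0.764 to 0.891 RPKM in WT and 0.967 to 1.48 RPKM in KO (0.54). Col1a1, a chain of type I collagen, was at 19.0, 26.4, 23.2 and 22.6 RPKM in WT and 46.0, 30.7, 45.2 and 24.3 RPKM in KO (0.64). KO replicate 4 was near the WT mice, and the other 3 were above them. The tendon list had 13 of 14 members above 0, with a median of 0.42 that fell to 0.20 without KO replicate 3. Its members Prg4, or lubricin, and Ptx4, a pentraxin, had separate groups, at 5.53 to 7.05 against 7.08 to 10.7 RPKM and at 0.359 to 0.688 against 0.713 to 1.40 RPKM. In trained mice the tendon median was -0.57 and the matrix median -0.069, the latter near the -0.054 over all genes.

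Markers of other cells moved beside these groups, and their part in the results was not tested. The 8 nerve and Schwann cell markers measured were all above 0, with a median of 0.53, or 0.26 with 6 above without KO replicate 3. Pmp22, a myelin gene on chromosome 11 at 9.50 Mb from Il13, was at 19.5 to 24.0 RPKM in WT, at 24.9, 24.5 and 26.9 in KO replicates 1, 2 and 4 and at 48.8 in replicate 3. Adipocyte markers were above 0 in 12 of 13, with a median of 0.59, or 0.40 without KO replicate 3. Their summed level overlapped, at 1345 to 1545 RPKM in WT and 1290 to 2011 RPKM in KO, and Ucp1 was at 0 throughout. Cidec, a lipid droplet gene, was at 15, 7.43, 6.95 and 7.10 RPKM in WT and 18.7, 13.5, 25.6 and 12.6 RPKM in KO, which overlap through WT replicate 1. In trained mice 6 of the 8 nerve markers were below 0 (median -0.081), as were 9 of the 13 adipocyte markers (median -0.10). The median over all genes was -0.054 there.

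**Figure D5:**
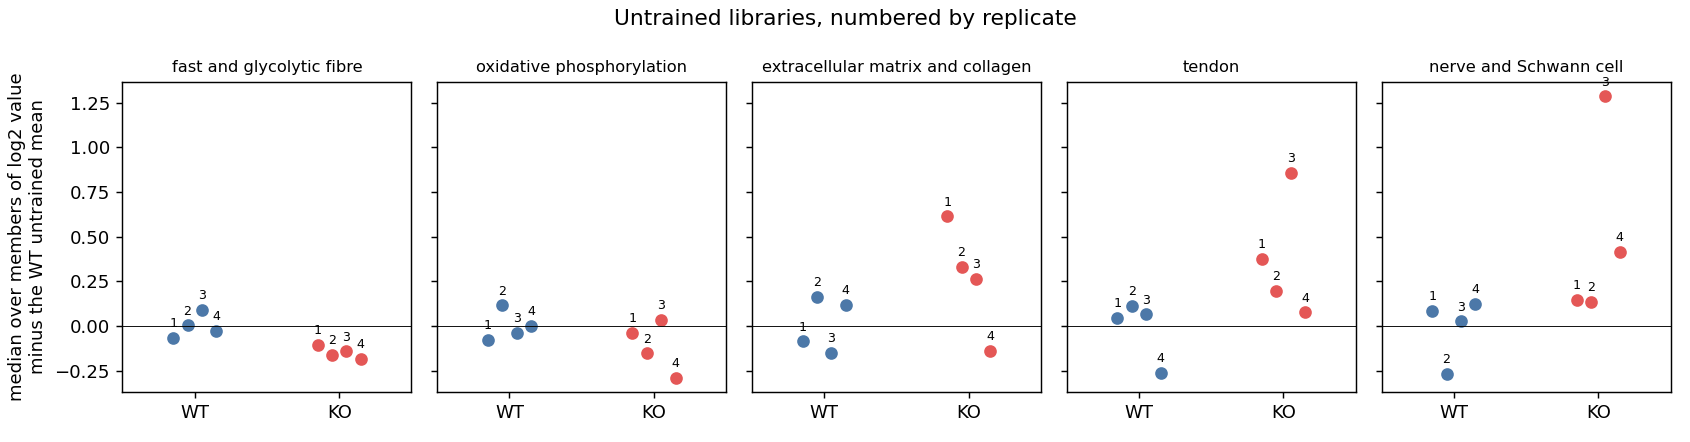
Median over the members of 5 gene lists of the log2(RPKM + 0.1) value minus the WT untrained mean, for each untrained library, numbered by replicate. The 4 KO libraries lie below all WT libraries for fast fibre genes on the deposited scale (the list median was 0 under quantile normalization), and KO replicate 3 is highest for tendon and nerve markers.

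Immune markers overlapped between the genotypes. The 14 macrophage markers measured were all above 0, with a median of 0.15 that was -0.027 without KO replicate 1, 0.021 without WT replicate 3, 0.30 without WT replicate 4 and 0.33 without KO replicate 4, and none had an unadjusted p under 0.05. Their summed level was 76.7 to 153.2 RPKM in WT and 89.3 to 174.1 RPKM in KO. In trained mice 10 of the 14 were below 0, with a median of -0.14, beside -0.054 over all genes. Of the 21 markers of eosinophils, mast cells and type 2 lymphoid cells, 4 were measured, all of them mast cell genes. They summed with the rest of that list to 6.69 to 14.8 RPKM in WT and 9.61 to 14.8 RPKM in KO, and Epx, the eosinophil peroxidase, was at 0 in all untrained libraries. Of 12 measured genes of the neuromuscular junction and denervation, 5 were above and 7 below 0, with a median of -0.088. At an unadjusted p under 0.05 (limma) there were 3, all lower, beside 2.99% of all genes. Among the lower members, Chrnb1 and Chrne, subunits of the acetylcholine receptor on chromosome 11 at 16.1 and 17.0 Mb from Il13, differed by -0.38 and -0.25 (adjusted p = 0.780 for both). Chrne had separate groups, and Chrnb1 overlapped, at 14.6 to 19.7 RPKM in WT and 12.1 to 15.5 RPKM in KO.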

How the data were processed

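Per the labels' protocols, poly(A) RNA of gastrocnemius went into strand-specific libraries. The authors deposited RPKM values computed from trimmed reads, per the file headers, and the submitters' processing notes name the build mm10. The sources used here give no aligner, counting program or gene annotation. No scaling beyond the library total is recorded. Columns were matched to groups by mouse identifier, and all 16 were used.

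Gene lengths and library totals were solved from the steps between RPKM values, which came out as whole reads within 0.01 for all 17402 genes above 0. A gene was tested if 4 or more of the 16 libraries reached 1 RPKM, on log2(RPKM + 0.1) with limma 3.58.1 (trend, robust; statmod 1.5.0) in R 4.3.3. One model held a mean for each of the 4 groups, and p-values were two-sided and Benjamini-Hochberg adjusted over all 10171 genes, with a threshold of 0.05. Fold changes on this scale understate those of low genes. P-values rest on the spread between 4 mice a group, pooled over the 4 groups (12 residual degrees of freedom) and moderated across genes. Floors of 3 reads cover counting error only. On simulated reads with 200 genes changed, the fit called 76% of those changed 1.5-fold and 90% of those changed 2-fold. It also called 8 of 9885 unchanged genes. The simulated scatter was drawn for each gene apart, so shifts shared by many genes of a library were not covered.

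The members and gene lists were chosen with earlier results of these data known. Genes named were the called genes, those within 2 Mb of Il13, the 10 smallest p in each direction off chromosome 11, up to 4 per list with the smallest p, and a fixed set of IL-13 and oxidative regulators; which of them are printed, and Hist3h2a, Cnot8, Myh4, Myh1 and the genes named under other settings, were chosen after their values were seen. Alternatives were other pseudocounts, filters, scalings, weights, sample sets, a replicate block, voom on recovered reads and leaving out each library. Gene overlaps came from GENCODE M21. Python 3.11.15 with pandas 2.3.3, NumPy 2.4.6 and matplotlib 3.10.9 was used for tables and plots.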

Additional observations from a re-analysis of the deposited data

Results flagged for a closer look

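In 198 groups of 4 libraries, for the genes and marker sums printed, 12 had 1 library far from the other 3 (by Dixon's 95% critical value for the gap to the nearest library over the range of the group). Chance alone flags about 1 in 20 such groups. For 4 of the 12, that library was untrained KO replicate 3: its summed nerve and Schwann cell markers were 149.9 RPKM against 67.2 to 77.6 in the other 3 KO libraries, Pmp22 was 48.8 against 24.5 to 26.9, S100b, a Schwann cell marker, was 3.10 against 1.10 to 1.22, and Esrrg was 5.36 against 3.83 to 3.99. The other 8 were single untrained WT libraries. In replicate 3, Tnip1 was lowest at 11.9 RPKM, as were Sparc at 99.3, Slc36a2 at 0.442 and Postn at 2.28, and Pvalb was highest at 9483. Fam114a2 was lowest in replicate 1, at 18.6 RPKM, and Cidec highest there, at 15, while Ripk2 was highest in replicate 4, at 1.22. For Fam114a2, Tnip1, Sparc, Slc36a2 and Ripk2 the groups were separate with that library included.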

How the results depend on the processing

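The untrained count of 5 genes, all on chromosome 11, was 3 with a filter at 5 RPKM (Lyrm7 and Thg1l were not tested there), 3 with only the 8 libraries compared, 4 with the replicate number as a block and 3 to 5 when 1 library was left out. The lower counts came without any 1 of WT replicates 1 to 4 or KO replicate 1 or 3. On chromosome 11 the range was 3 to 4, with 3 under the filter at 5 RPKM and 3 with only the 8 libraries. Off chromosome 11 the count of 0 became 1 without a filter (a gene model) and 0 to 1 when 1 library was left out (Tuba1a, without KO replicate 4, adjusted p = 0.0391). The trained count of 9 became 3 with only the 8 libraries, 5 with the block and 2 to 9 without 1 library, with 2 without WT trained replicate 3 or 4 or KO trained replicate 1. The count of 0 for the difference of the genotype effects became 1 without a filter, 1 under quantile normalization (Hspb6) and 0 to 2 without 1 library (Myh2 and Prg4, without KO trained replicate 3). Lyrm7 and Thg1l passed in 17 of the 17 alternatives that tested them, Fam114a2 in 17 of 18, Tnip1 in 12 of 18 and Anxa6 in 7 of 18, and all 5 kept their direction in each. Under quantile normalization Rad50 was -0.0077 and Myh4 0.13. Without 1 library, Rad50 ranged from -0.0582 to 0.1205, Esrra from -0.0209 to 0.1124 and Esrrg from -0.0345 to 0.1482. Same-numbered mice did not deviate together (correlations of -0.182 to 0.020), so the block was not used further; it lost the Anxa6 call (adjusted p = 0.184). Depth limits Il13, Il4 and Il5, which lay at or near the floor of 3 reads.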
